A study of Mus musculus with 4 samples.

Results

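Acute phase and plasma protein genes were examined in the epididymal fat of mice, a visceral depot attached to the epididymis. The 9 genes were chosen by name: Saa3, Saa2, Hp, Lcn2, Orm1, Serpina3n, Cp, Fgb and Ambp. They were 9 of 18820 genes that had a probe set annotated to 1 gene symbol, and each was read by a single probe set of that kind. The groups were 2 arrays of CD1d-/- (KO) mice fed 10 kcal% fat (low-fat), 1 array of wild type mice fed 45 kcal% fat (high-fat), and 1 array of wild type mice fed the low-fat diet. All mice were on the C57BL/6 background, the KO line after 10 to 12 generations of backcrossing, and all went onto their diet at 10 to 11 weeks of age and stayed on it for 18 to 19 weeks. CD1d shows lipid antigens to NKT (natural killer T) cells, and the study asks what these cells do for insulin sensitivity in lean mice. The null allele removes CD1d from the whole animal and not from fat alone, and each array held RNA pooled from 4 to 6 mice. Whether the KO arrays came from separate pools is not stated in the labels, so p-values measure the spread between these arrays, which may be technical. No array of KO mice on the high-fat diet was analysed here.

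The acute phase response is the change in secreted plasma proteins that follows infection, injury or inflammation. The liver makes most of these proteins, and interleukin-6, interleukin-1 and related cytokines induce them through STAT3, C/EBP and NF-kB transcription factors. Fat makes some of them too: adipocytes and macrophages of mice express Saa3, and adipocytes express haptoglobin, lipocalin-2 and orosomucoid. Albumin, transthyretin and some other carriers are called negative acute phase proteins, because the liver makes less of them during the response.

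Levels are log2 intensities from the authors' RMA summary, and each difference is one of log2 values unless called a fold. Levels of different genes are not compared with each other, since each probe set has its own brightness. The targeted gene Cd1d1 was at 3.74 and 3.98 on KO arrays 1 and 2, against 11.80 on each wild type array, as the genotype labels state. Adipocyte markers were bright on all arrays. Their summed intensity over 8 genes was 64222 and 64751 on the KO arrays, 64385 on the wild type high-fat array and 63386 on the wild type low-fat array. The sum does not show Lep, the leptin gene, named after its values were seen. Lep was at 11.97 and 12.93 on KO arrays 1 and 2, with 12.85 on the high-fat and 11.85 on the low-fat wild type array. Some arrays stood apart in markers of other cells. Epididymis markers, 13 genes, summed to 318 and 1629 on KO arrays 1 and 2 and 209 on the high-fat array, against 15691 on the low-fat wild type array. Lipid-associated macrophage markers, 6 genes, summed to 748 and 6518 on KO arrays 1 and 2, with 9373 on the high-fat and 952 on the low-fat wild type array. Over the 11292 genes bright enough to test, KO arrays 1 and 2 had median differences of −0.17 and −0.02 from the low-fat wild type array, and the high-fat array 0.05. With 4 arrays the precision of every value is limited.

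The bases before the start site are printed for 4 genes from the RefSeq promoter table (GRCm38.p6), in lower case with motif matches in capitals. Saa3 and Fgb are shown because they were at least 1.5-fold higher than on the low-fat wild type array both on KO array 2 and on the high-fat array. Hp met the same condition and has no entry in that table. Lcn2 and Saa2 were added after their values were seen, Lcn2 as a gene high on KO array 2 and Saa2 as the relative of Saa3 that stayed dim, that is, under the median of each array. Each stretch holds the 250 bases before the start, at chr7:46715677-46715926 (minus strand) for Saa3, chr7:46751583-46751832 (plus strand) for Saa2, chr2:32387740-32387989 (minus strand) for Lcn2 and chr3:83049864-83050113 (minus strand) for Fgb.
Saa3: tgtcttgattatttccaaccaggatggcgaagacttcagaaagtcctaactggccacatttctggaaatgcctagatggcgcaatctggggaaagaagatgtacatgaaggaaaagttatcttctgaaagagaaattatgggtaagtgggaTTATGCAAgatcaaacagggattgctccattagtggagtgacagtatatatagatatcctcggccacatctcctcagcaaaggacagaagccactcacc
Saa2: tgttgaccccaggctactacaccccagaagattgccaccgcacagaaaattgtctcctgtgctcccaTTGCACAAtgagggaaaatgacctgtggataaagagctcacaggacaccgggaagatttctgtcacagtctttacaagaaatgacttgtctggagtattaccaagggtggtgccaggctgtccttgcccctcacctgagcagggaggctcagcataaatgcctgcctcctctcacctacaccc
Lcn2: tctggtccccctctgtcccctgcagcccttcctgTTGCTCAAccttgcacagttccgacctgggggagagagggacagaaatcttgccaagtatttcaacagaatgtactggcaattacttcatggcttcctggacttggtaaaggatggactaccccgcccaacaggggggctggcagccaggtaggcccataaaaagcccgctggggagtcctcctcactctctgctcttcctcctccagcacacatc
Fgb: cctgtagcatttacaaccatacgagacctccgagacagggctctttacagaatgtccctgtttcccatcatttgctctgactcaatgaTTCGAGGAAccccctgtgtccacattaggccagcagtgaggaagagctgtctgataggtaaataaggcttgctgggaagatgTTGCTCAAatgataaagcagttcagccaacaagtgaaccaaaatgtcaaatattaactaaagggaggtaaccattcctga
The motifs were searched on both strands in the promoters of 32851 start sites: a C/EBP-type motif TTGCNNAA, a STAT-type motif TTCNNNGAA, which reads the same on either strand, and an NF-kB-type motif of GGG and TTTCC with 2 free bases between them. The C/EBP-type motif was in 9.56% of all promoters, the STAT-type motif in 7.02% and the NF-kB-type motif in 1.41%. Among the 7 genes of the set with an entry, which have 8 start sites in all, the C/EBP-type motif was found before 5 start sites, those of Saa3, Saa2, Lcn2, Fgb and the second start of Cp. Its first base lay 99 bases before the start of Saa3, 183 before Saa2, 216 before Lcn2 and 80 before Fgb. The STAT-type motif was found before Fgb, 162 bases upstream, and the NF-kB-type motif before Serpina3n, 171 bases upstream. No match overlapped another in the printed stretches. Saa2, whose signal was dim on all arrays, and Saa3, which spanned the widest range of the set, both hold the C/EBP-type motif.

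The 9 genes fell into patterns by array, shown in the plot of levels on the 4 arrays. Saa3, Hp and Lcn2 were high on KO array 2 and to a smaller degree on the high-fat wild type array, and Serpina3n had the array order of Saa3 and Hp over a range of 0.56. Fgb and Ambp were highest on the high-fat wild type array, with both KO arrays between the wild type arrays. Orm1 spanned 0.38, Cp was highest on the low-fat wild type array with a range of 0.48, and Saa2 was dim throughout. For 3 genes, Saa3, Hp and Serpina3n, both wild type levels lay inside the range of the KO pair, while for 4 genes, Orm1, Cp, Fgb and Ambp, neither did.

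**Figure D1:**
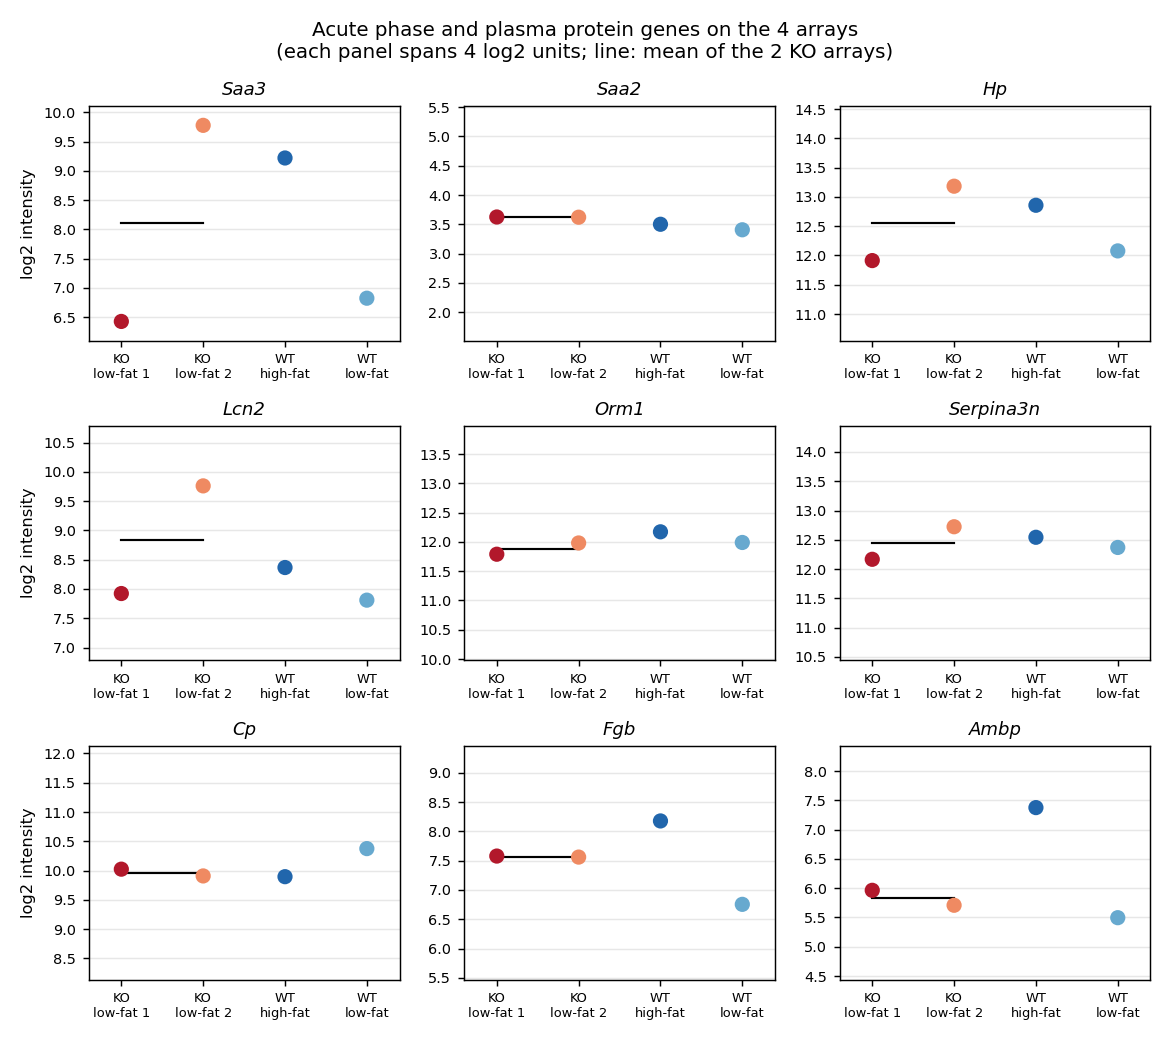
Level of each acute phase and plasma protein gene (log2 intensity, y axis) on KO low-fat arrays 1 and 2, the wild type high-fat array and the wild type low-fat array (x axis); points are single arrays, the line is the mean of the KO pair, and every panel spans the same height. Saa3 is near 6.43 and 6.83 on KO array 1 and the wild type low-fat array and above 9 on the other arrays, while Orm1 and Saa2 are nearly level.

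Saa3 encodes serum amyloid A3, the form of this lipoprotein-associated acute phase protein that mice make mainly outside the liver. It was at 6.43 and 9.78 on KO arrays 1 and 2, against 9.22 on the high-fat and 6.83 on the low-fat wild type array. On the linear scale these were 86.2, 877, 596 and 113 units in the same order of arrays. KO array 2 and the high-fat array were thus the bright ones, and KO array 1 lay below the low-fat wild type array. The fold between the KO arrays was 10.2, and between the wild type arrays, high-fat over low-fat, it was 5.26. The KO mean of 8.10 ± 2.37 (SD, n = 2) differed from the low-fat wild type level by 1.28 with a standard error of 1.26, and limma gave an adjusted p = 1. By array the difference was −0.40 for KO array 1 and 2.95 for KO array 2, so its direction rests on KO array 2.

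Saa2 encodes a serum amyloid A that the mouse liver secretes in the acute phase. It was at 3.62 on each KO array, against 3.50 on the high-fat and 3.41 on the low-fat wild type array, and each of these levels lay under the median of its array. It was not tested, because its mean was below the filter at 5.45, and the dim signal gives no order of the arrays. A further probe set annotated to several serum amyloid A symbols was left out by the rule. The serum amyloid A genes are close relatives, so signal shared between them cannot be told apart.

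Hp encodes haptoglobin, which binds free haemoglobin. It was at 11.91 and 13.18 on KO arrays 1 and 2, against 12.86 on the high-fat and 12.08 on the low-fat wild type array. The same arrays were high as for Saa3, with smaller folds of 2.41 between KO arrays 2 and 1 and 1.72 between the high-fat and low-fat wild type arrays. For Hp the KO mean of 12.55 ± 0.90 (SD, n = 2) differed from the low-fat wild type array by 0.47 with a standard error of 0.56 (limma, adjusted p = 1). Without KO array 2 the difference was −0.17.

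Lcn2 encodes lipocalin-2, which binds bacterial siderophores and so withholds iron. It was at 7.92 and 9.76 on KO arrays 1 and 2, against 8.37 on the high-fat and 7.81 on the low-fat wild type array. KO array 2 was the highest by 1.39 over the high-fat array, and KO array 1 and the low-fat wild type array were close together. The high-fat array was 1.47-fold above the low-fat one, just short of the 1.5-fold used for counting. The KO mean of 8.84 ± 1.30 (SD, n = 2) differed from the low-fat wild type array by 1.03 with a standard error of 0.74 (limma, adjusted p = 1).

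Markers of macrophages were high on the same arrays as Saa3 and Hp. Of the 11 macrophage markers, all tested, 8 were at least 1.5-fold higher on KO array 2 than on KO array 1, beside 14.8% of all tested genes. On the high-fat array 7 were that much higher than on the low-fat wild type array, beside 7.72%. Their summed intensity was 9964 and 19888 on KO arrays 1 and 2, against 21981 on the high-fat and 12374 on the low-fat wild type array. Among the brightest, Cd68, a lysosomal protein of macrophages, was at 9.53 and 11.28 on KO arrays 1 and 2, with 11.61 on the high-fat and 10.09 on the low-fat wild type array. The macrophage markers summed highest on the high-fat array, whereas Saa3, Hp and Lcn2 were highest on KO array 2. Neutrophils store lipocalin-2, and their markers summed to 499 and 447 on the KO arrays, 304 on the high-fat and 303 on the low-fat wild type array over 9 genes, of which 4 were dim on all arrays. The 3 brightest neutrophil markers, the only ones tested, did not share an order of arrays. S100a8, a calcium-binding protein of neutrophils, was at 6.66 and 7.56 on KO arrays 1 and 2, with 6.45 on the high-fat and 5.88 on the low-fat wild type array (limma, unadjusted p = 0.0352, adjusted p = 1). Its partner S100a9 was at 6.88 and 5.23 on KO arrays 1 and 2, with 5.18 on the high-fat and 5.16 on the low-fat wild type array, dim on all but KO array 1. The mean of S100a9 reached the filter only through its level on KO array 1, which thus decided its testing. Elane, neutrophil elastase, was at 5.95 and 5.65 on the KO arrays, with 6.08 on the high-fat and 6.21 on the low-fat wild type array. Thus S100a8 was highest on KO array 2, as Lcn2 was, S100a9 on KO array 1 and Elane on the low-fat wild type array. The part of macrophages and neutrophils in the levels of Saa3, Hp and Lcn2 was not tested. In pooled bulk tissue, more cells of a type and more RNA per cell cannot be told apart.

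Orm1 encodes orosomucoid 1, or alpha-1-acid glycoprotein, which binds lipids and drugs. It was at 11.79 and 11.98 on KO arrays 1 and 2, against 12.17 on the high-fat and 11.99 on the low-fat wild type array. These levels spanned 0.38 in all, and the KO mean differed from the low-fat wild type array by −0.10 with a standard error of 0.31 (limma, adjusted p = 1), a direction that turned to 0.01 after median centring. Its relatives did not share this flat pattern. Orm2 was at 7.50 and 8.13 on the KO arrays, with 8.57 on the high-fat and 7.44 on the low-fat wild type array. Orm3 was at 8.88 and 7.47 on KO arrays 1 and 2, with 8.05 on the high-fat and 8.91 on the low-fat wild type array, so it was lower where Orm2 was higher. The Orm genes are near-identical copies, and how their probe sets split the signal is uncertain.

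Serpina3n encodes a secreted inhibitor of serine proteases of the antichymotrypsin group. It was at 12.17 and 12.72 on KO arrays 1 and 2, against 12.54 on the high-fat and 12.37 on the low-fat wild type array. KO array 2 was highest and KO array 1 lowest, 1.47-fold apart, and the wild type arrays lay between them. The KO mean of 12.45 ± 0.39 (SD, n = 2) differed from the low-fat wild type array by 0.08 with a standard error of 0.37 (limma, adjusted p = 1). Serpina3n belongs to a family of close copies, so its probe set may carry signal of others.

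Cp encodes ceruloplasmin, the copper-carrying ferroxidase of plasma. It was at 10.02 and 9.91 on KO arrays 1 and 2, against 9.90 on the high-fat and 10.38 on the low-fat wild type array. The low-fat wild type array stood above the other arrays, which lay within a narrow band. For Cp the KO mean of 9.97 ± 0.08 (SD, n = 2) differed from it by −0.41 with a standard error of 0.31 (limma, adjusted p = 1), and the high-fat array was 1.39-fold lower than the low-fat array. The epididymis markers, given above, also summed highest on the low-fat wild type array, and their part in the Cp level was not tested.

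Fgb encodes the beta chain of fibrinogen, the clotting protein made of alpha, beta and gamma chains. It was at 7.58 and 7.56 on KO arrays 1 and 2, against 8.18 on the high-fat and 6.75 on the low-fat wild type array. The KO arrays nearly coincided and lay 1.77-fold and 1.75-fold above the low-fat wild type array. Their mean of 7.57 ± 0.01 (SD, n = 2) differed from the low-fat wild type array by 0.82 with a standard error of 0.31, which in limma gave an unadjusted p = 0.0400 and an adjusted p = 1. The high-fat wild type array was 2.68-fold above the low-fat array. The gamma chain gene Fgg had the same order of groups, at 6.98 and 7.30 on the KO arrays, 8.03 on the high-fat and 6.63 on the low-fat wild type array. The alpha chain gene Fga, chosen as the remaining chain, was dim on all arrays, at 4.86 and 5.11 on the KO arrays, 5.34 on the high-fat and 4.75 on the low-fat wild type array.

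Ambp encodes the precursor that is cut into alpha-1-microglobulin, a heme-binding lipocalin, and bikunin, a protease inhibitor. It was at 5.96 and 5.71 on KO arrays 1 and 2, against 7.38 on the high-fat and 5.50 on the low-fat wild type array. The high-fat array stood alone above the rest. Its fold over the low-fat array, 3.68, is uncertain, since the low-fat level lay under the median of that array. Against the low-fat wild type array, the KO mean of 5.84 ± 0.18 (SD, n = 2) differed by 0.34 with a standard error of 0.32 (limma, adjusted p = 1).

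Counted over the set, 8 of the 9 genes were tested. Between KO and wild type mice fed the low-fat diet, limma called 0 of the 8 at an adjusted p under 0.05, beside 0.0443% of all tested genes, and 1 of 8, Fgb, had an unadjusted p under 0.05, beside 0.815% of all tested genes. The 5 genes behind the first share were Cd1d1 and 4 epididymis markers, Lcn5, Spint4, Spint5 and Epp13, all lower in the KO group. Each of these 4 markers reached the filter only through the low-fat wild type array. That single array thus decided both their testing and their call as lower. Spint4, for one, was at 3.25 and 4.43 on the KO arrays, 3.19 on the high-fat and 11.35 on the low-fat wild type array. When genes with known changes were simulated, this test found 0 of the 50 set at 2-fold, so changes of the size of Fgb were not detectable there. At 8-fold it found 42 of 50, and 6 unchanged genes were called wrongly. Genes set at 64-fold were simulated too, so the 8-fold recovery may not hold for the real data. In those, the epididymis markers Spink11, Defb23 and Rnase12 had KO differences of −4.56, −4.65 and −3.52 and were not called. By size, 1 of the 8 genes, Fgb, was at least 1.5-fold higher on both KO arrays, beside 0.584% of all tested genes, and 0 of 8 were that much lower, beside 0.77%. KO array 2 alone had 4 of the 8 at least 1.5-fold higher than the low-fat wild type array (Saa3, Hp, Lcn2 and Fgb), beside 5.54% of all tested genes, and 0 of 8 that much lower, beside 4.6%. KO array 1 alone had 1 of 8 higher, Fgb, beside 1.93%, and 0 of 8 lower, beside 5.02%.

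Between the diets, the high-fat array exceeded the low-fat wild type array at least 1.5-fold for 4 of the 8 tested genes (Saa3, Ambp, Fgb and Hp), beside 7.72% of all tested genes, and for 0 of 8 it was that much lower, beside 3.82%. The median difference was 0.67 over the 8 genes and 0.05 over all tested genes. With 1 array per group, this comparison has no replicate check. Between the KO arrays, of 1 genotype and 1 diet, 3 of the 8 were at least 1.5-fold higher on KO array 2 (Saa3, Lcn2 and Hp), beside 14.8% of all tested genes, and 0 of 8 were lower, beside 4.45%. The median difference between the KO arrays was 0.37 over the 8 genes and 0.14 over all tested genes. The differences of the KO arrays and of the high-fat array all use the same low-fat wild type array.

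Of the other positive acute phase proteins tested, most were higher on the high-fat wild type array than on the low-fat one. Of 30 listed genes, 19 had a probe set with 1 symbol and 12 were tested. The high-fat array exceeded the low-fat wild type array at least 1.5-fold for 8 of these, beside 7.72% of all tested genes. It was that much lower for 1, Orm3, beside 3.82%. The median difference was 1.11 over the 12 genes and 0.05 over all tested genes. Among the 8, Itih3 was dim on all arrays but the high-fat one. It was at 5.61 and 5.16 on KO arrays 1 and 2, with 5.94 on the high-fat and 5.24 on the low-fat wild type array. Its mean reached the filter only through the high-fat level, which thus decided both its testing and its count as higher. On both KO arrays 0 of the 12 were at least 1.5-fold higher than on the low-fat wild type array, beside 0.584% of all tested genes. By the same measure 0 were lower, beside 0.77%. Hpx was an exception after median centring or quantile normalization, and limma called 0 of the 12, beside 0.0443% of all tested genes. Limma also called 0 of the 58 tested genes of all 4 acute phase lists. At an unadjusted p under 0.05 there were 0 of the 58, beside 0.815% of all tested genes. Lrg1 and Lbp, named here for their likeness to Saa3 after their values were seen, were high on KO array 2 and the high-fat array. Lrg1, a leucine-rich plasma glycoprotein, was at 9.61 and 11.71 on KO arrays 1 and 2, with 11.40 on the high-fat and 10.26 on the low-fat wild type array. Lbp, which carries bacterial lipopolysaccharide to its receptor, was at 10.92 and 12.21 on the KO arrays, with 12.12 on the high-fat and 11.02 on the low-fat wild type array. Mt1 and Mt2, metallothioneins that bind zinc and copper, also named after their values were seen, had neither the order of Saa3 nor that of Fgb. Mt1 was at 11.94 and 11.38 on KO arrays 1 and 2, with 11.19 on the high-fat and 11.59 on the low-fat wild type array. Mt2 was at 12.98 and 13.03 on the KO arrays, with 12.76 on the high-fat and 12.66 on the low-fat wild type array. The largest diet differences were in genes with the order of Fgb. Hpx, the heme carrier hemopexin, was at 7.02 and 7.25 on the KO arrays, 8.16 on the high-fat and 6.51 on the low-fat wild type array. Serpina1b, an alpha-1-antitrypsin, was 2.71-fold and Itih4, an inter-alpha-trypsin inhibitor heavy chain, 2.37-fold higher on the high-fat array.

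Most listed negative acute phase and carrier proteins were also higher on the high-fat wild type array. Of 14 listed genes, all with a probe set, 12 were tested. The high-fat array exceeded the low-fat wild type array at least 1.5-fold for 10 of them, beside 7.72% of all tested genes. It was that much lower for 0, beside 3.82%, and the median difference was 1.21. Among the 10, Itih2 was dim on all arrays but the high-fat one. It was at 5.69 and 5.23 on the KO arrays, 6.31 on the high-fat and 5.18 on the low-fat wild type array. Like Itih3, it reached the filter only through its high-fat level. Ttr, the thyroid hormone carrier transthyretin, was at 7.44 and 7.43 on the KO arrays, 8.84 on the high-fat and 7.00 on the low-fat wild type array. Alb, albumin, was at 11.24 and 11.25 on the KO arrays, 12.20 on the high-fat and 10.92 on the low-fat wild type array. Ahsg, fetuin-A, was 3.22-fold, Plg, plasminogen, 2.89-fold and Apoh 2.68-fold higher on the high-fat array. Apoa1 and Apoc3, apolipoproteins of plasma lipoproteins, were higher than on the low-fat wild type array by 0.50 and 0.75 and by 0.45 and 0.46 on KO arrays 1 and 2, and Apoa1 passed 1.5-fold on both after median centring or quantile normalization. The exceptions were Trf, transferrin, and Rbp4, retinol-binding protein, at −0.11 and −0.22 on the high-fat array.

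**Figure D2:**
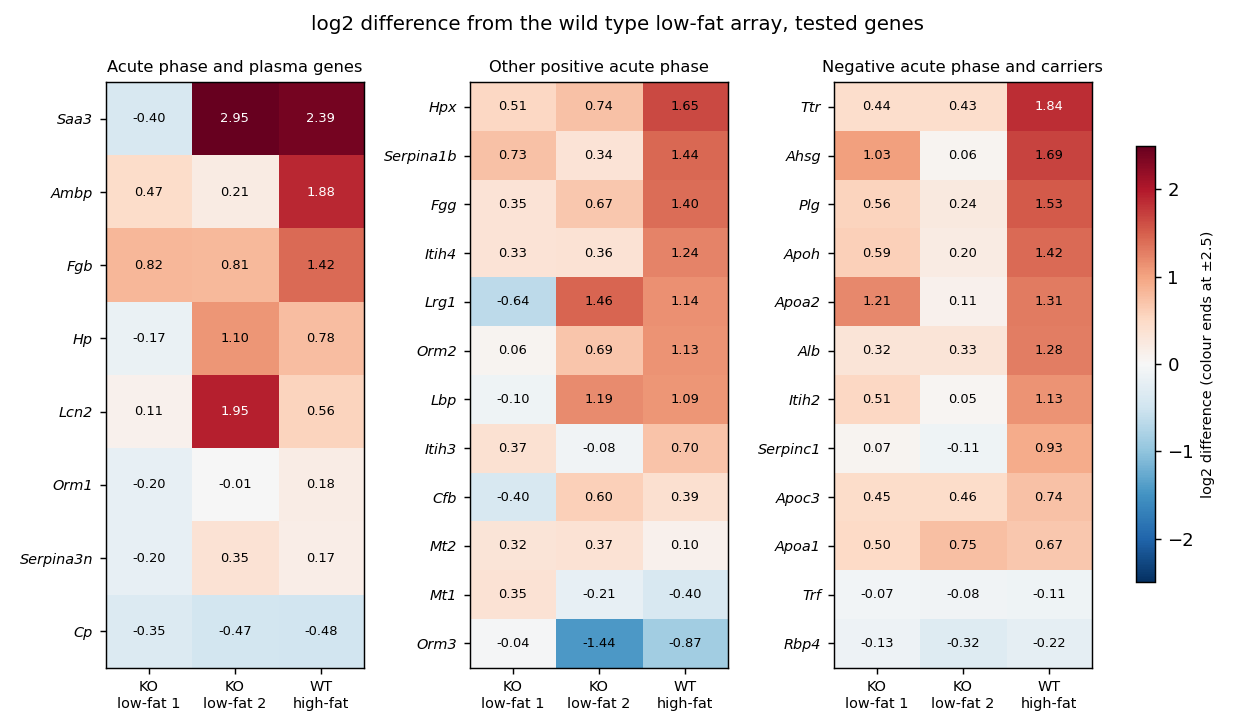
Log2 difference of each array from the low-fat wild type one (colour and printed value) for tested genes (rows, ordered by the high-fat difference) on KO low-fat arrays 1 and 2 and the wild type high-fat array (columns), for the acute phase and plasma genes, other positive acute phase proteins, and negative acute phase and carrier proteins. Saa3, Hp, Lcn2, Lrg1 and Lbp have their largest values on KO array 2, whereas Ambp, Fgb, Hpx, Ttr and Ahsg have theirs on the high-fat array.

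Hepatocyte markers were higher on the same array as Fgb and Ambp. Of 14 listed, 13 were on the array with 1 symbol and 10 were tested. All 10 exceeded the low-fat wild type array at least 1.5-fold on the high-fat array, beside 7.72% of all tested genes, with a median difference of 1.30. Their median difference from the low-fat wild type array was 0.63 for KO array 1 and 0.24 for KO array 2. Limma called 0 of the 10, beside 0.0443% of all tested genes, with 0 at an unadjusted p under 0.05, beside 0.815%. The summed intensity over 13 genes was 4749 and 4303 on KO arrays 1 and 2, against 7843 on the high-fat and 3344 on the low-fat wild type array. Of the 13 genes, 3 were dim on all arrays: Fga, the pentraxin gene Apcs and the aminotransferase gene Tat. This list shares Alb, Ttr, Ahsg, Apoa1, Apoa2 and Apoh with the carrier list and Fgg, Fga and Apcs with the list of positive acute phase proteins, so the counts overlap. The part of hepatocyte-type RNA in the Fgb and Ambp levels was not tested.

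**Figure D3:**
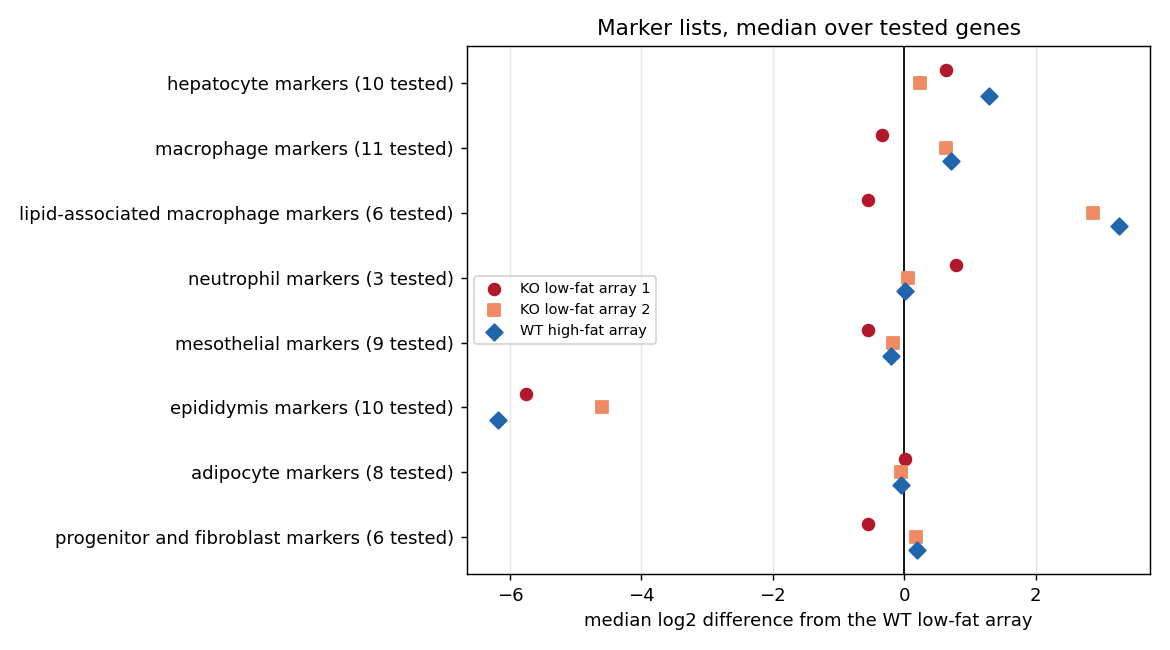
Median log2 difference of each array from the low-fat wild type one over the tested genes of each marker list (rows, number tested in brackets) for KO low-fat array 1, KO low-fat array 2 and the wild type high-fat array. Hepatocyte markers are highest on the high-fat array at 1.30, lipid-associated macrophage markers are high on the high-fat array and KO array 2, and epididymis markers are far below 0 on all 3 arrays.

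Genes with profiles most like those of the set were found by the root mean square difference between centred log2 profiles over the 4 arrays, among 10882 tested genes. Nearest to Saa3 were Slc5a7, a choline transporter, Tfr2, transferrin receptor 2, and Oxtr, the oxytocin receptor, at 0.16, 0.26 and 0.28. Slc5a7 was at 7.07 and 10.05 on KO arrays 1 and 2, with 9.85 on the high-fat and 7.23 on the low-fat wild type array. Nearest to Hp were Pam, an enzyme that amidates peptides, the monoamine oxidase gene Maoa and Ogdhl, at 0.02, 0.04 and 0.05. Nearest to Lcn2 were Plscr2, Pex5l and Dnajc6, at 0.18, 0.18 and 0.25. Nearest to Fgb were Slc38a3, a glutamine transporter, Fat3 and the cytochrome P450 gene Cyp2d26, at 0.07, 0.08 and 0.09. Nearest to Ambp were the bile acid transporter gene Slc10a1, the carboxylesterase gene Ces3a and Ttr, at 0.05, 0.09 and 0.10. Slc10a1 was at 5.65 and 5.32 on the KO arrays, with 6.99 on the high-fat and 5.05 on the low-fat wild type array.

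In a list of cytokines, receptors, transcription factors and inhibitors of acute phase induction, 4 genes differed by at least 1.5-fold between the diets. The largest difference was in an antagonist gene, Il1rn. Of 26 listed, 25 were on the array with 1 symbol and 18 could be tested. On the high-fat array 3 of these were that much higher than on the low-fat wild type array, beside 7.72% of all tested genes. There 1 was that much lower, beside 3.82%, and the median difference was 0.13. Il6, Il1b and Tnf, the main inducing cytokines, were below the filter and under the median of every array. Il1rn, the interleukin-1 receptor antagonist, was at 4.85 and 6.55 on KO arrays 1 and 2, with 7.05 on the high-fat and 5.16 on the low-fat wild type array, and was dim on KO array 1 and the low-fat wild type array. The interleukin-1 receptor gene Il1r1 and its accessory chain gene Il1rap were higher on the high-fat array by 0.61 and 0.72. Il1rap was dim on KO array 1 and the low-fat wild type array. Cebpd, a C/EBP factor, was the lower gene, at 7.92 and 7.03 on KO arrays 1 and 2, with 6.95 on the high-fat and 7.55 on the low-fat wild type array. The changes shared by both KO arrays were small: −0.37 and −0.31 for the glucocorticoid receptor gene Nr3c1, 0.16 and 0.70 for Il1r1, and 0.09 and 0.08 for the interleukin-6 receptor gene Il6ra on KO arrays 1 and 2.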

How the data were processed

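Per the submitters' processing notes, the arrays were summarized with RMA in R 2.15.0. The authors deposited linear intensities, from 5.71 to 20092, with a value for each probe set. The build and annotation behind the probe sets were not given in the sources used here. Here the log2 of the deposited intensities was taken without further normalization. Of 35556 probe sets, 21218 had 1 gene symbol, 1881 several and 12457 none listed, and a gene with several was read by the brightest on average. Genes with a mean at or above 5.45, the 40th percentile, were tested, 11292 of 18820. Groups were taken from the sample titles. The KO group was set against the low-fat wild type array with limma 3.58.1 (R 4.3.3), a mean per group, two-sided, with Benjamini-Hochberg adjustment over all tested genes. The spread comes from the KO pair alone (1 residual and 4.62 prior degrees of freedom), and each wild type array was assumed to vary as that pair does. The fit was tested on simulated data with 50 changed genes at each fold. Comparisons with 1 array per group were described by size, at 1.5-fold. A level under the median of its array over all probe sets is called dim.

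The genes and lists were chosen with earlier results of these data known. The named genes were the 9 of the set and Cd1d1, up to 4 genes per acute phase list by diet difference and by shared KO change, up to 3 of the brightest genes per marker list, and the 3 genes of most similar profile for each tested gene spanning at least 1 log2 unit. Promoter sequences and symbols are from RefSeq (GRCm38.p6), in which the Entrez IDs and symbols of all 9 genes matched. Alternatives covered the filter, scaling, probe set rule, variance model, fold and each KO array left out. Figures used matplotlib 3.10.9.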

Additional observations from a re-analysis of the deposited data

How the results depend on the processing

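Limma called 0 of the tested acute phase and plasma genes for KO against wild type under each of the 8 alternative fits, with every adjusted p rounding to 1. The number of all genes called was 5 in the analysis as reported, 3 after quantile normalization, 3 with the mean of all probe sets of a gene, 0 without the filter (282 at an unadjusted p under 0.05) and 2 with the 60th percentile filter. The cause was not tested. The last pair also differed in the number of genes tested, 18820 and 7528. Without KO array 1 or without KO array 2 there is no residual degree of freedom and so no test. Genes at least 1.5-fold from the low-fat wild type array in either direction were counted instead. On KO array 1 alone these were 1 of the 8 tested genes of the set and 6 of the 58 of the 4 acute phase lists. Beside them, 1.93% of all tested genes were that much higher and 5.02% lower. On KO array 2 alone they were 4 of 8 and 14 of 58, beside 5.54% higher and 4.6% lower. The KO difference turned negative without KO array 2 for Saa3 (from −0.40 without that array to 2.95 without KO array 1), Hp (−0.17 to 1.10) and Serpina3n (−0.20 to 0.35). That of Orm1 turned to 0.01 (0.00695) after median centring. Fgb stayed between 0.81 and 0.93 under all 10 alternatives run for it. Of the acute phase lists, 2 genes, Apoa1 and Hpx, were at least 1.5-fold higher on both KO arrays after median centring and 2 after quantile normalization, the same genes, against 0 as reported. At a 2-fold threshold, 0 genes of the set were that far apart on both KO arrays, against 1, and 15 list genes differed between diets, against 26. Counts of the set between diets and between KO arrays stayed within 1.5 times. Counts for hepatocyte markers (8 to 10) and positive acute phase proteins (7 to 8) on the high-fat array, alternatives chosen after seeing the data, did as well. No paired analysis was possible because the wild type groups have 1 array each. Without scanner files, signal over background is unknown, and dim genes such as Saa2 and the low-fat level of Ambp have uncertain differences.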

Other observations

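Receptors of the secreted proteins and genes of iron handling were read on the same arrays. Of 18 listed genes, 16 had a probe set and all 16 were tested. The high-fat array exceeded the low-fat wild type array at least 1.5-fold for 3, beside 7.72% of all tested genes. These were Steap3, a ferrireductase, by 0.86, Itgam, the CD11b chain of a receptor that binds fibrinogen, by 0.83, and the heme oxygenase gene Hmox1 by 0.69. Hmox1 was at 8.38 and 9.37 on KO arrays 1 and 2, with 9.32 on the high-fat and 8.63 on the low-fat wild type array. Cd163, which encodes the macrophage receptor for haptoglobin bound to haemoglobin, had no such spread, at 8.44 and 8.39 on the KO arrays, 8.06 on the high-fat and 8.28 on the low-fat wild type array. The iron exporter gene Slc40a1 was highest on the low-fat wild type array, as Cp was, at 7.31 and 7.16 on KO arrays 1 and 2, with 7.37 on the high-fat and 7.84 on the low-fat wild type array. Heph, the membrane relative of ceruloplasmin, was at 8.46 and 8.56 on the KO arrays, 8.80 on the high-fat and 8.74 on the low-fat wild type array. The ferritin genes Fth1 and Ftl1 differed from the low-fat wild type array by at most 0.13 on any array. Of the lipocalin-2 receptors, Slc22a17 was at 7.24 and 7.03 on KO arrays 1 and 2, with 7.11 on the high-fat and 7.21 on the low-fat wild type array. Lrp2 was at 5.61 and 6.96 on the KO arrays, with 5.93 on the high-fat and 6.18 on the low-fat wild type array.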
